A study of Mus musculus with 13 samples.

Results

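The Hox genes are the 39 protein-coding mouse genes whose symbols run Hoxa, Hoxb, Hoxc or Hoxd followed by a number, out of 21887 protein-coding genes in the RefSeq annotation of GRCm38.p6, the assembly with the coordinates of mm10. They were taken by symbol together with the 4 clusters in which they lie, each extended by 50 kb on both sides: HoxA on chromosome 6 (11 genes), HoxB on chromosome 11 (10 genes), HoxC on chromosome 15 (9 genes) and HoxD on chromosome 2 (9 genes). Binding of BLIMP1, a zinc-finger transcriptional regulator, was mapped by ChIP-seq with a rabbit antibody to GFP. Every cell was of strain C57BL/6 and carried EGFP knocked into both alleles at the N terminus of BLIMP1, so no library came from cells with an untagged protein.

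Libraries came from 3 germ-lineage and 3 somatic cell types. Culture models of primordial germ cells (PGC), the PGC-like cells or PGCLC of day 2 (d2) and day 6 (d6), were made from knock-in embryonic stem cells through 36 h as epiblast-like cells. The d2 cells were grown with LIF and BMP4 (500 ng/mL) and were KIT-positive. The d6 cells were grown with LIF, BMP4, 500 ng/mL BMP8a, 100 ng/mL SCF and 50 ng/mL EGF, and were positive for SSEA1 and integrin beta-3. The E12.5 PGC (E stands for embryonic day) were the SSEA1-positive cells of male and of female gonads from embryos obtained by sperm injection. The somatic groups were E16.5 intestinal epithelium (GFP and EPCAM positive), photoreceptor precursors of the retina at postnatal day 4 (GFP positive) and plasmablasts, which are B cells after 3 days with IL-4 (2 ng/mL) and LPS (10 ng/mL) and sorted for GFP and CD138. Each cell type had 2 libraries, which for E12.5 PGC were 1 male and 1 female. An input library of male E12.5 PGC was not analysed here. The lists hold binding positions and no expression, so the identity of the cells could not be checked against marker genes.

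Hox genes encode homeodomain transcription factors that give cells along the head-to-tail axis their positional identity. Within a cluster the genes of low paralogue number act towards the head and those of high number towards the tail, limbs and genital region, and their order follows the order in which they are switched on. Polycomb proteins keep the clusters silent and trithorax proteins keep active genes on. In the mouse embryo, cells that become PGC stop expressing Hox genes that their mesodermal neighbours keep, and loss of BLIMP1 is known to disturb this. BLIMP1 recognises DNA with a GAAAG core.

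The deposited lists give summits, the single positions at which the authors called peaks, separately for each library, with no height or score. Library lists ran from 7998 summits (intestinal epithelium replicate 1) to 76185 (d6 PGCLC replicate 1), and the sources used here give no read depth. The d6 PGCLC replicate 1 list stood apart, since replicate 2 of the same cells had 15411 summits. Neighbouring summits, of whatever library, were joined into 1 region when 200 bp or less separated them. Bound means that both libraries of a cell type had a summit in the region or, for a gene, within 1 kb of either end, because the strand was known for 22 of the 39 Hox genes.

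The sequences of 5 promoter windows are shown because each belongs to a gene whose binding is described below. Hoxa3, Hoxb4 and Hoxa13 were the Hox genes bound within 1 kb of an annotated start, all 3 in plasmablasts. Hoxa2 held a region bound at all 3 germ-lineage stages, and Hoxd13 was the bound gene of the HoxD cluster. Each window runs from 250 bp before to 50 bp after the gene start (RefSeq, GRCm38.p6), is written 5′ to 3′ on the strand of the gene, and has GAAAG and its reverse complement CTTTC, or the longer form AGNGAAAG, in capitals.
Hoxa2, chr6:52164782-52165081, minus strand: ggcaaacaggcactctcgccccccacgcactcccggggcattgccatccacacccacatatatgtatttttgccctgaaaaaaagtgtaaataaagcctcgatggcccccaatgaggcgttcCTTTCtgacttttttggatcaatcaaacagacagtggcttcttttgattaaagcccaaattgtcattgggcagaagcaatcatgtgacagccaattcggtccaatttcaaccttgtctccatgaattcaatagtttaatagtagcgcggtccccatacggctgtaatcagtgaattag
Hoxa3, chr6:52213018-52213317, minus strand: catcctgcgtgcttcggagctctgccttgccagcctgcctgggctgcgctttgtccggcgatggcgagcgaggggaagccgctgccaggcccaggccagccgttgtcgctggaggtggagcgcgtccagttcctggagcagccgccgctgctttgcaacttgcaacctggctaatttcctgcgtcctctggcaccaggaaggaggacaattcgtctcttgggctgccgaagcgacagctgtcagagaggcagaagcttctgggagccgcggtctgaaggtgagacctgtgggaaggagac
Hoxa13, chr6:52260831-52261130, minus strand: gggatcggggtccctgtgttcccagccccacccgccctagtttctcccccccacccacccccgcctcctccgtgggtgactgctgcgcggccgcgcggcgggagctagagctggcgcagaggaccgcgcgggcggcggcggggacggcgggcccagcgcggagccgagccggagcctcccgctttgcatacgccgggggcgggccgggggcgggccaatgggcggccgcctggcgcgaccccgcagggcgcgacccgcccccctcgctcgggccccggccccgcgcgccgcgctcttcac
Hoxb4, chr11:96318017-96318316, plus strand: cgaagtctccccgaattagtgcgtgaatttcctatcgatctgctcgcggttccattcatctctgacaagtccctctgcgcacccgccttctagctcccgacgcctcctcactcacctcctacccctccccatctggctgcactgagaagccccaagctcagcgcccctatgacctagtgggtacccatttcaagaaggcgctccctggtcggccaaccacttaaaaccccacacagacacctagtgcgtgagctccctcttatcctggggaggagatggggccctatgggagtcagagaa
Hoxd13, chr2:74667975-74668274, plus strand: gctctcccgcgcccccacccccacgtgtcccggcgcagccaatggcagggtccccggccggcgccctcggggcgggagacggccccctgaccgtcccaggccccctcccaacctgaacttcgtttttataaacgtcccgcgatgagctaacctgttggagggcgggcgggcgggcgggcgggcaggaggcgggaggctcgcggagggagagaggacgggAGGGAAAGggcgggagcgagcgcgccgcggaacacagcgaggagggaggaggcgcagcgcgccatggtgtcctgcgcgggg

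The table of promoters held 24 windows for 22 of the 39 Hox genes. AGNGAAAG, searched on both strands, stood in 2 of the 24 Hox windows (8.33%, Hoxd13 and Hoxd4) and in 2836 of 32851 windows of all genes (8.63%). The shorter GAAAG, which the longer form contains, stood in 16 Hox windows (66.7%) and in 57.3% of all windows. The windows of Hoxa3, Hoxa13 and Hoxb4, printed above, hold neither form, and that of Hoxd13 holds AGNGAAAG at a start with no summit of any library within 1 kb. No Hox window held a summit of both libraries of a cell type. Single libraries had a summit inside the windows of Hoxb4 and Hoxd11 (d6 PGCLC replicate 1), Hoxd3 (d2 PGCLC replicate 2) and Hoxa6 (plasmablasts replicate 2).

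MicroRNAs are embedded in all 4 clusters and their mature sequences show which clusters carry the same family. The seed, bases 2 to 8, is in capitals (RefSeq).
miR-10a-5p: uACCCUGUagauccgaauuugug
miR-10b-5p: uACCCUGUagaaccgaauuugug
miR-196a-5p: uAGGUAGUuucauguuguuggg
miR-196b-5p: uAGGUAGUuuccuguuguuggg
miR-615-3p: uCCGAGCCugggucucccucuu

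The miR-10 members share the seed ACCCUGU and lie in HoxB (miR-10a, beside Hoxb4) and HoxD (miR-10b). The miR-196 members share AGGUAGU and lie in HoxB and HoxC (miR-196a) and HoxA (miR-196b). Both families are known to repress Hox messenger RNAs. Of these 5 loci, none was bound: miR-10a and miR-196b had a summit within 1 kb in 1 library, d6 PGCLC replicate 1, and the others in none. Mir615, the locus of miR-615 inside Hoxc5, differed, with a summit within 1 kb of the gene in 11 of 12 libraries and binding in every cell type except photoreceptor precursors. These summits include those of a region in the interior of Hoxc5 (103015800 to 103016000), described again below, near the 1 kb limit. They were the only summits counted in both intestinal epithelium libraries, d2 PGCLC replicate 2 and d6 PGCLC replicate 1. A summit of d2 PGCLC replicate 1 (chromosome 15, 103014986) lay within the mature miR-615-3p sequence (103014969 to 103014990).

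BLIMP1 summits were denser in the Hox clusters than in the genome at large in all 12 libraries, though in photoreceptor precursors replicate 2 not beyond counting error. The 4 clusters with their flanks span 892 kb, which is 0.0337% of the span covered by summits. They held 30 and 50 summits in d2 PGCLC, 147 and 26 in d6 PGCLC, and 15 and 23 in male and female E12.5 PGC. Somatic libraries held 17 and 20 in the intestinal epithelium, 9 and 9 in the photoreceptor precursors, and 48 and 54 in plasmablasts. As a multiple of each library's own genome mean, the density was 5.49 and 5.57 in d2 PGCLC, 5.73 and 5.01 in d6 PGCLC, 3.62 and 3.84 in PGC at E12.5, 6.31 and 4.90 in the intestinal epithelium, 2.46 and 1.92 in the photoreceptor precursors and 3.50 and 3.55 in plasmablasts. The d6 PGCLC lists of very different length therefore gave like densities. The genome mean includes stretches poor in genes, and a comparison with other gene-dense stretches was not made.

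**Figure D1:**
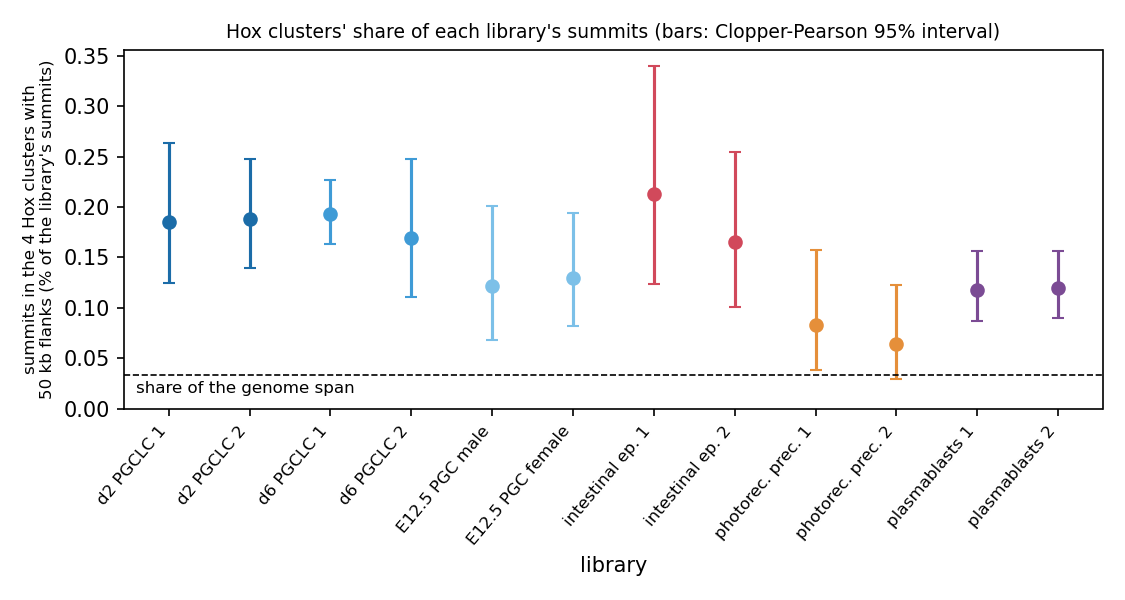
Share of each library's summits that lay in the 4 Hox clusters with 50 kb flanks (y axis, percent), for 12 libraries (x axis), with Clopper-Pearson 95% intervals that cover counting error only. The dashed line is the 0.0337% of the genome span that the clusters occupy, and photoreceptor precursors, at 0.0829% and 0.0645%, lie closest to it. The interval of photoreceptor precursors replicate 2, from 0.0295% to 0.122%, includes the line.

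The germ-lineage and somatic cell types did not differ in this share beyond their spread. The share averaged 0.186% ± 0.00196 for the d2 stage of the PGCLC, 0.181% ± 0.0171 in d6 PGCLC and 0.126% ± 0.00508 in PGC at E12.5 (SD, n = 2 libraries each). It averaged 0.189% ± 0.0336 in the intestinal epithelium, 0.0737% ± 0.0130 in the photoreceptor precursors and 0.119% ± 0.00133 in plasmablasts. Intestinal epithelium was thus as high as the PGCLC, and E12.5 PGC stood near plasmablasts, so the groups overlapped. The mean was 0.164% ± 0.0335 over the germ-lineage cell types and 0.127% ± 0.0580 over the somatic ones (SD, n = 3 each; difference 0.0371 percentage points, exact permutation test, two-sided, p = 0.50, with 0.10 the smallest this design allows). Whether replicates were separate cultures or animals is not stated in the labels, so spread between libraries may be technical.

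HoxD carried few summits where HoxA, HoxB and HoxC carried many. Averaged over the 6 cell types, the density was 5.64 ± 2.44 times the genome mean in HoxA, 4.96 ± 1.87 in HoxB, 5.18 ± 1.25 in HoxC and 1.12 ± 1.11 in HoxD (SD, n = 6). The differences were 4.52 for HoxA minus HoxD, 3.84 for HoxB minus HoxD and 4.06 for HoxC minus HoxD. Each had the same sign in 6 of 6 cell types, with an exact sign-flip permutation p of 0.031 (two-sided), the smallest the design allows. After Benjamini-Hochberg adjustment over the 6 pairs of clusters each was 0.0625, which misses 0.05. HoxA, HoxB and HoxC did not separate from one another (exact permutation test, adjusted p from 0.56 to 0.72).

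Within HoxD, 6 libraries listed no summit at all: d2 PGCLC replicate 1, d6 PGCLC replicate 2, both E12.5 PGC libraries and both photoreceptor precursor libraries. The 22 summits of d6 PGCLC replicate 1 and the 3 of d2 PGCLC replicate 2 made up the germ-lineage total. Intestinal epithelium had 2 and 2, and plasmablasts 3 and 5. Without d6 PGCLC replicate 1 the differences from HoxD were 4.73 for HoxA, 4.33 for HoxB and 4.34 for HoxC. The low HoxD density therefore did not rest on the long list, which was the richest in HoxD.

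**Figure D2:**
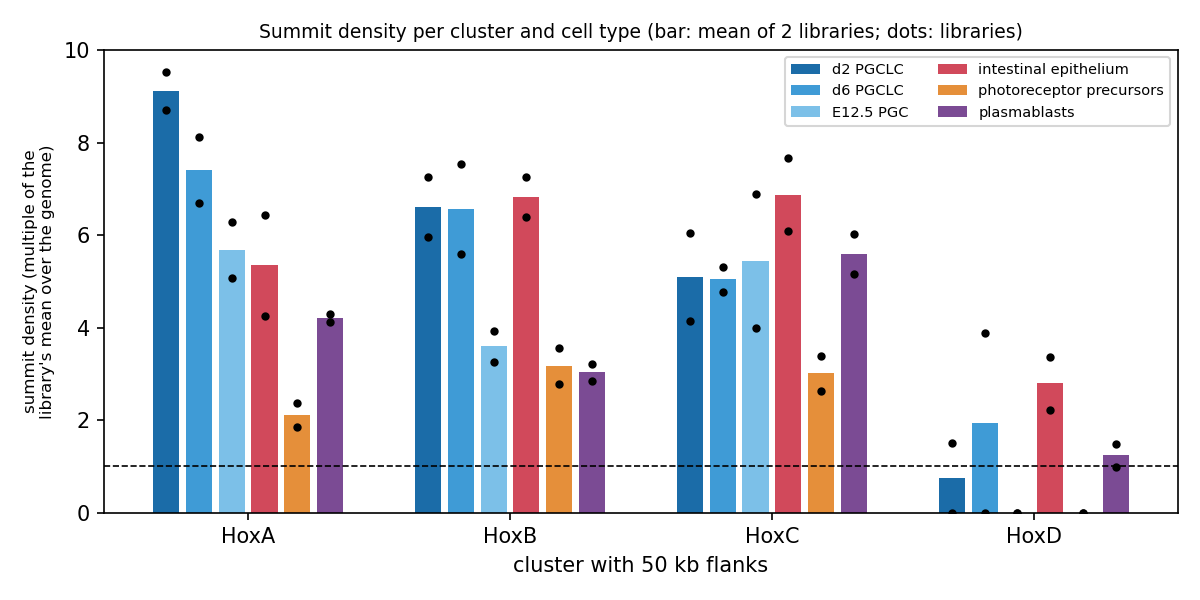
Summit density of each Hox cluster with flanks (x axis) as a multiple of the library's genome mean (y axis), bars for the mean of 2 libraries per cell type and dots for the libraries; the dashed line is the genome mean. HoxD bars lie between 0 and 2.79, below those of the other clusters in each cell type.

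Cell types differed in which cluster was richest. In d2 PGCLC and d6 PGCLC it was HoxA (9.12 and 7.41 times the genome mean), and in PGC at E12.5 HoxA and HoxC stood close together (5.68 and 5.45). In intestinal epithelium HoxC and HoxB were highest (6.88 and 6.82), in plasmablasts HoxC (5.60), and in the photoreceptor precursors HoxB and HoxC (3.17 and 3.02). With 2 libraries a cell type, the order within a cell type was not tested.

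The bodies of the clusters, from the lowest to the highest Hox gene coordinate, were denser in summits than their 50 kb flanks. The body had 6.18, 7.63 and 5.05 times the genome mean in d2 PGCLC, d6 PGCLC and E12.5 PGC, against 4.73, 2.59 and 2.11 in the flanks. Body values of 8.49, 2.20 and 5.12 in the intestinal epithelium, photoreceptor precursors and plasmablasts stood against 2.06, 2.17 and 1.56 in the flanks. Body and flanks were nearly level in the photoreceptor precursors alone. The mean difference was 3.24 ± 2.33 (SD, n = 6 cell types; exact sign-flip permutation test, two-sided, p = 0.031, higher in 6 of 6). Single clusters were not tested, and HoxA went the other way in bound regions, with 7 in its body and 10 in its flanks. Body and flank counts were 11 and 4 in HoxB, 12 and 1 in HoxC and 1 and 0 in HoxD. In d2 PGCLC the flank of HoxA on the side of the low paralogue numbers held 3 regions more than 39 kb from the cluster body, 2 of them within Halr1, a non-coding RNA gene.

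**Figure D3:**
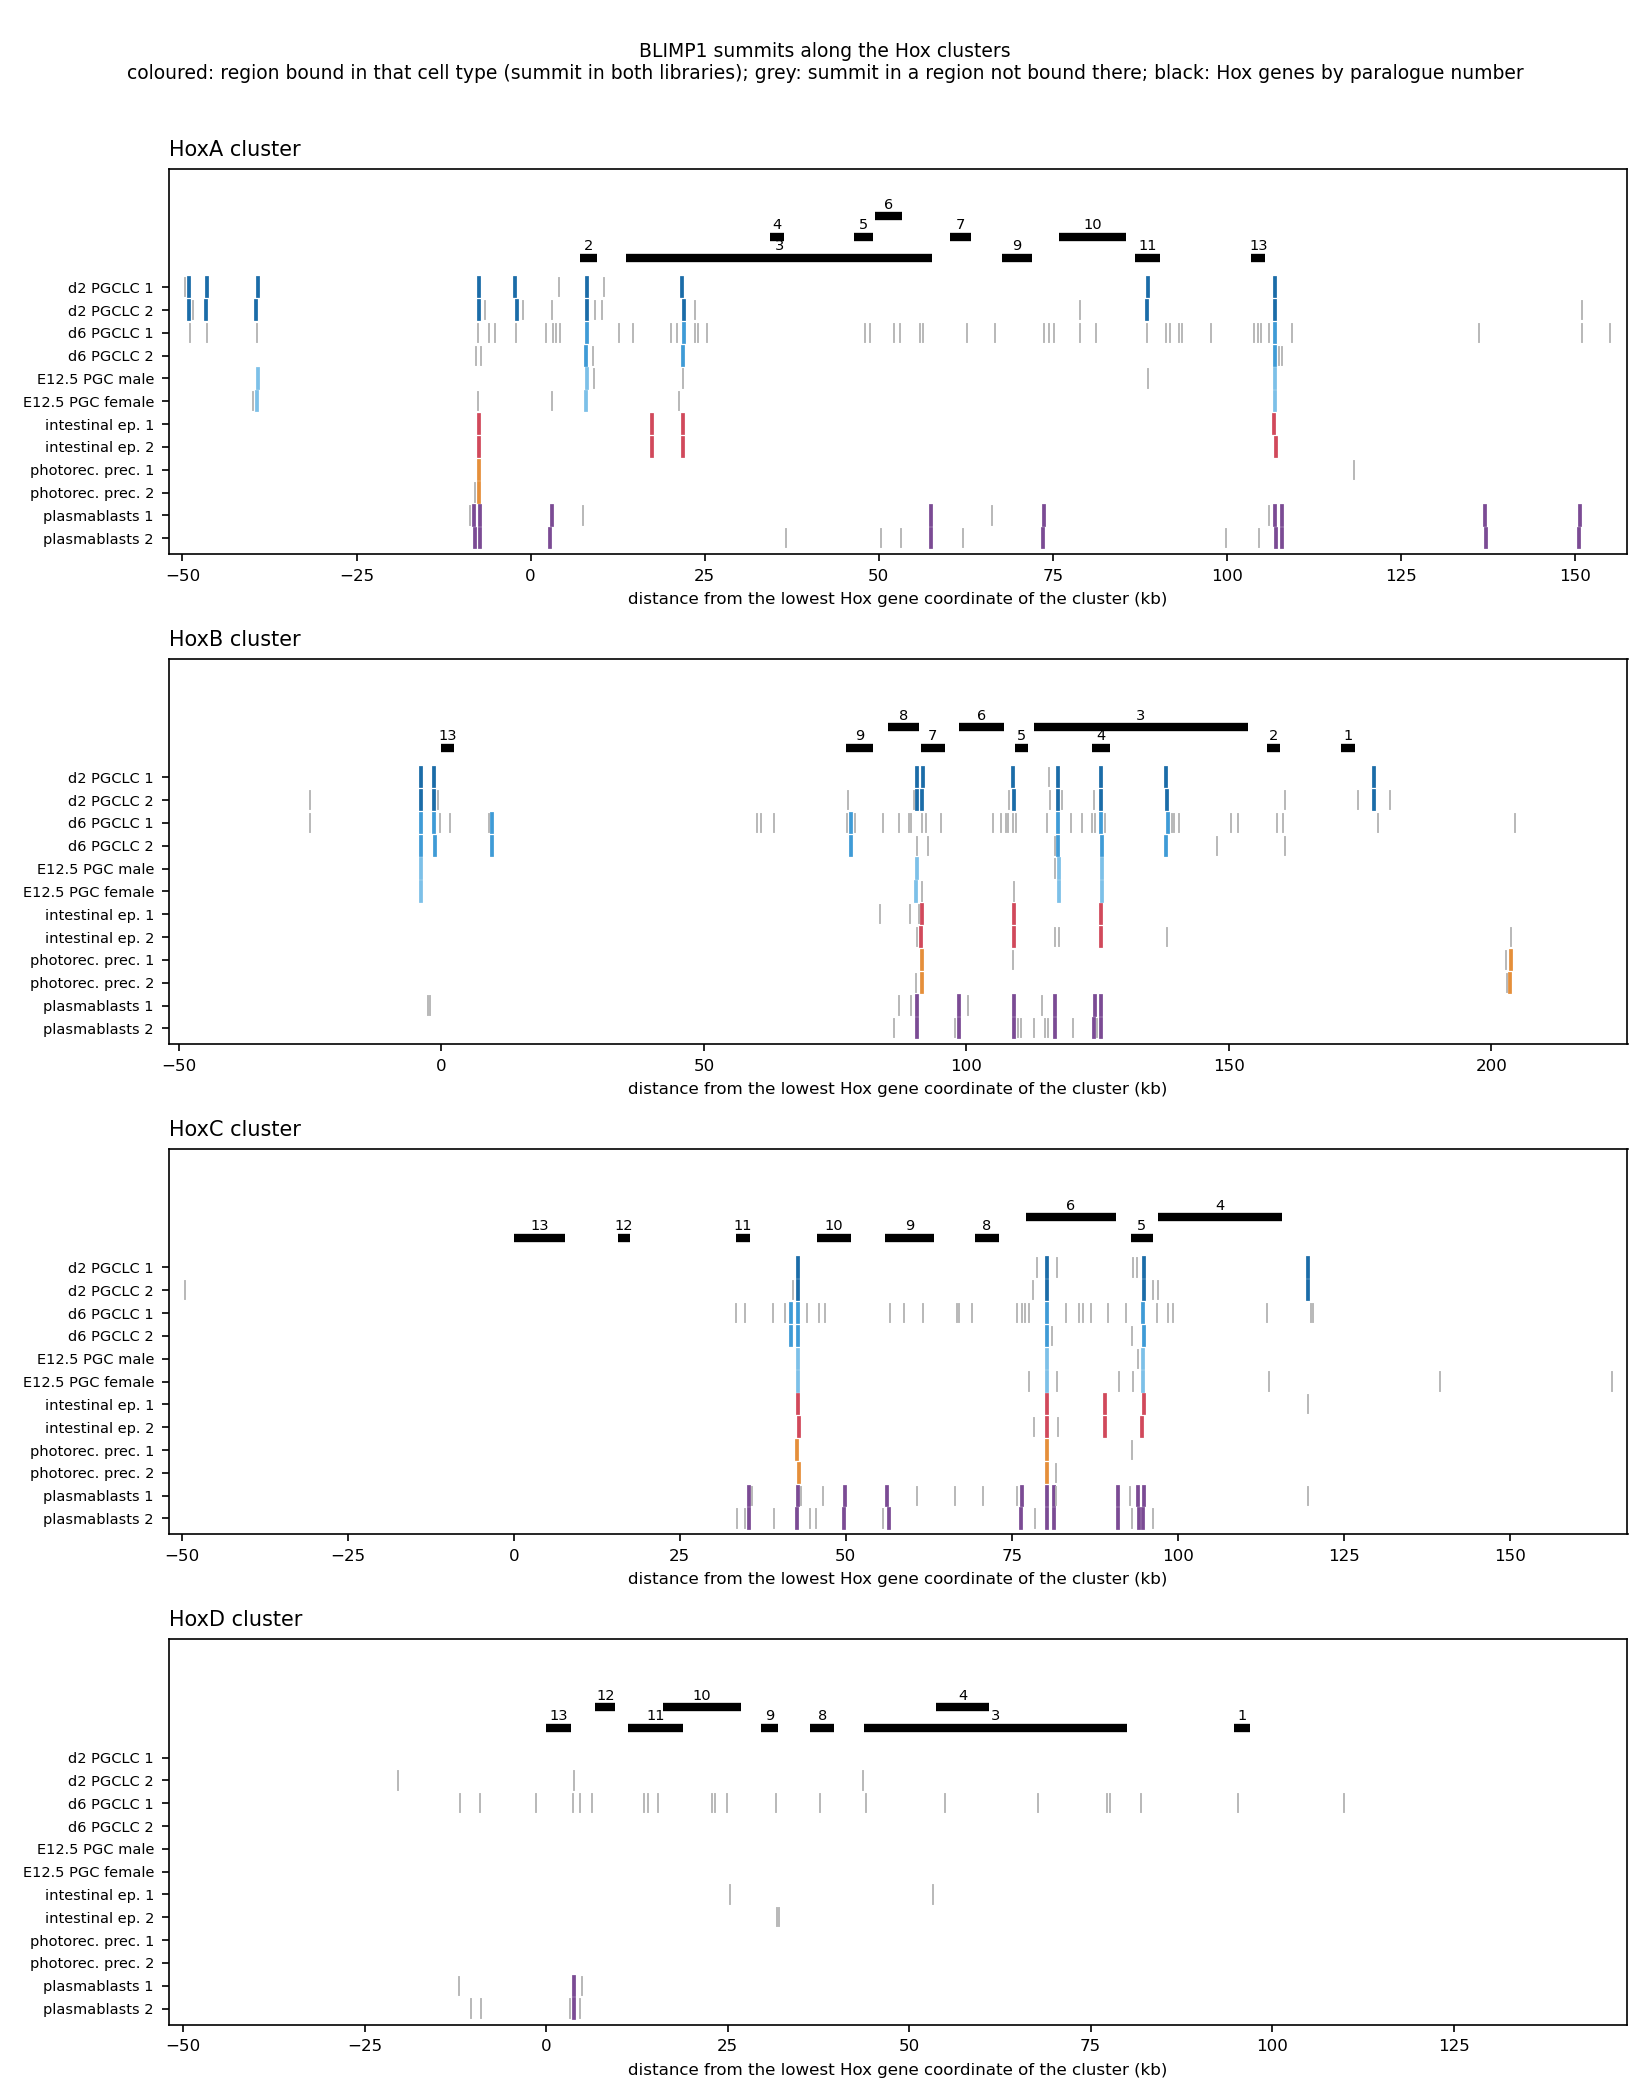
Every summit in the 4 Hox clusters and their flanks (x axis, kb from the lowest Hox gene coordinate) in each of the 12 libraries (rows). Coloured marks lie in regions bound in that cell type, grey marks in regions not bound there, and black bars are 38 of the Hox genes with their paralogue number; columns of colour recur across rows in HoxA, HoxB and HoxC, and HoxD has 1 bound region.

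The clusters held 245 merged regions, and 46 of them (18.8%) were bound in at least 1 cell type, against 27% of the 155003 regions of the whole genome. A total of 103 Hox regions (42%) rested on d6 PGCLC replicate 1 alone, against 28.3% of all regions. HoxA had 17 bound regions, HoxB 15, HoxC 13 and HoxD 1. In d2 PGCLC 22 of the 46 were bound (47.8%, genome 28.5%), in d6 PGCLC 14 (30.4%, genome 27.2%), in PGC at E12.5 10 (21.7%, genome 18.3%), in the intestinal epithelium 11 (23.9%, genome 11.8%), in the photoreceptor precursors 5 (10.9%, genome 18.8%) and in plasmablasts 26 (56.5%, genome 55.4%). The Hox share lay furthest above the genome's in d2 PGCLC and intestinal epithelium, and below it in the photoreceptor precursors. The median distance between the nearest summits of the libraries in a bound region was 36.5 bp (E12.5 PGC) to 65 bp (d6 PGCLC).

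Across the germ-lineage stages the number of bound Hox regions was 22 for d2, 14 for d6 and 10 for E12.5. All 10 regions of E12.5 PGC were also bound in d2 PGCLC, whereas over the genome 69.2% of the regions bound in E12.5 PGC were. The d2 and d6 stages had 11 regions in common, which is 50% of the d2 and 78.6% of the d6 regions (63.8% and 66.9% over the genome). A set of 8 regions was bound at all 3 stages (17.4% of the 46, genome 11.2%), and a summit of some somatic library lay in 6 of them (75%, genome 65.3%). Of the 11 Hox regions of intestinal epithelium 9 were bound in d2 PGCLC too (81.8%, genome 49.1%), as were 4 of the 5 of photoreceptor precursors (80%, genome 27.7%). These are 40.9% and 18.2% of the d2 regions (genome 20.4% and 18.2%). The numbers are not corrected for list length, which ran from 16234 to 26657 summits in d2 PGCLC, from 12291 to 17798 in E12.5 PGC and from 7998 to 12115 in the intestinal epithelium.

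Of the 46 Hox regions 30 were bound in exactly 1 cell type (65.2%, genome 71%), of which 18 in plasmablasts, 6 in d2 PGCLC, 3 in d6 PGCLC, 2 in the intestinal epithelium and 1 in the photoreceptor precursors. In 13 of the 30 (43.3%, genome 60.5%) no library of another cell type had a summit, among them 7 of the 18 of plasmablasts. A germ-lineage cell type without any somatic summit accounted for 12 regions (26.1%, genome 22.9%). A somatic cell type without any germ-lineage summit accounted for 10 (21.7%, genome 42.8%). Regions of the somatic kind were thus fewer than those of the germ-lineage kind in the Hox clusters, and more numerous over the genome. The difference was not tested, and single libraries set some of these labels. The plasmablast regions 52228913 to 52229079 (HoxA) and 102997512 to 102997724 (HoxC) had a germ-lineage summit of d6 PGCLC replicate 1 alone. The germ-lineage regions 96311820 to 96311890 and 96332380 to 96332786 (HoxB) had a somatic summit of intestinal epithelium replicate 2 alone.

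BLIMP1 bound 2 Hox regions in all 6 cell types, 4.35% of the 46 against 2.61% of all bound regions, and both lie in HoxC. One lies between Hoxc11 and Hoxc10 on chromosome 15, from 102963835 to 102964082, at 2714 bp from Hoxc10. The other, from 103001358 to 103001493, lies inside Hoxc6, and its 12 summits fall within 136 bp. Each of the 12 libraries had a summit in each of these regions.

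A further 3 regions were bound in every cell type except photoreceptor precursors, in 10 libraries each, and no photoreceptor precursor library had a summit in them. The HoxA one lies on chromosome 6 from 52262153 to 52262378, at 1273 bp from Hoxa13 and next to Hottip, the non-coding RNA at the end of the cluster. The HoxB one lies on chromosome 11 from 96319971 to 96320105, within Hoxb4. The HoxC one lies on chromosome 15 from 103015800 to 103016000, inside Hoxc5, and its summits are among those counted for Mir615 above. Another HoxA region, from 52147820 to 52148050, outside the cluster body, was bound in d2 PGCLC and the 3 somatic cell types. The d6 PGCLC replicate 1 and female E12.5 PGC libraries had a summit in it too.

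Regions bound at all 3 germ-lineage stages with no somatic summit numbered 2 (4.35%, genome 3.88%). The first lies inside Hoxa2, a gene of the hindbrain and the branchial arches, on chromosome 6 from 52163273 to 52163501. Its summits stood at 52163501 and 52163459 in d2 PGCLC, 52163412 and 52163273 in d6 PGCLC and 52163455 and 52163364 in male and female E12.5 PGC. The second lies on chromosome 11 from 96190393 to 96190486, at 3830 bp from Hoxb13, a gene of the tail end of the axis. The 6 germ-lineage libraries each had a summit in both regions.

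At the level of genes, 15 of the 39 had BLIMP1 bound within 1 kb of an end in some cell type. By cell type the number was 4 (10.3%) in d2 PGCLC, 5 (12.8%) in d6 PGCLC, 3 (7.69%) in PGC at E12.5, 3 (7.69%) in the intestinal epithelium, 2 (5.13%) in the photoreceptor precursors and 13 (33.3%) in plasmablasts. Of all protein-coding genes, 8.41%, 9.72%, 5.79%, 7.29%, 9.68% and 39.7% were bound in the same order of cell types. Their share bound in some cell type, to set beside 15 of 39, was not counted. It cannot be below the 39.7% of plasmablasts. Counted by either end, the Hox share was near that of all genes in d2 PGCLC, d6 PGCLC, E12.5 PGC and intestinal epithelium. It was lower in photoreceptor precursors and plasmablasts, and none of these differences was tested. Neighbouring Hox genes share summits: E12.5 PGC and intestinal epithelium each had 2 distinct bound regions behind their counts. In d6 PGCLC, Hoxa2 alone of the 5 genes had both libraries in the same region near an end. At Hoxb2, Hoxb7, Hoxb8 and Hoxc5 the d6 PGCLC libraries marked different regions. By annotated start alone, 0 of 22 Hox genes were bound in each cell type except plasmablasts, with 3 (13.6%), where 41.9% of all genes with such a start were. The d2 PGCLC zero was a near miss at Hoxa2. Replicate 1 had a summit 1009 bp from its start, just beyond the limit, and replicate 2 had summits at 282 and 745 bp. With 1 library of d6 PGCLC alone, replicate 2 gave 5 genes and replicate 1 gave 29. A summit of either library was near 29 Hox genes (74.4%), against 36.6% of all genes.

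Within 5 kb the picture differed, with 30 of the 39 genes bound in at least 1 cell type. Binding covered 18 genes (46.2%) in d2 PGCLC, 15 (38.5%) in d6 PGCLC, 12 (30.8%) in PGC at E12.5, 14 (35.9%) in the intestinal epithelium, 4 (10.3%) in the photoreceptor precursors and 24 (61.5%) in plasmablasts. The shares of all protein-coding genes were 17.8%, 19.2%, 12.2%, 12.9%, 15.5% and 50.3%. Their share bound in at least 1 cell type, to set beside 30 of 39, was not counted. It cannot be below the 50.3% of plasmablasts. The Hox share was above that of all genes in every cell type except photoreceptor precursors. Hox genes lie close together and share summits: the 18 genes of d2 PGCLC had 16 distinct bound regions, and the 14 of intestinal epithelium had 9. No test was made of these shares.

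**Figure D4:**
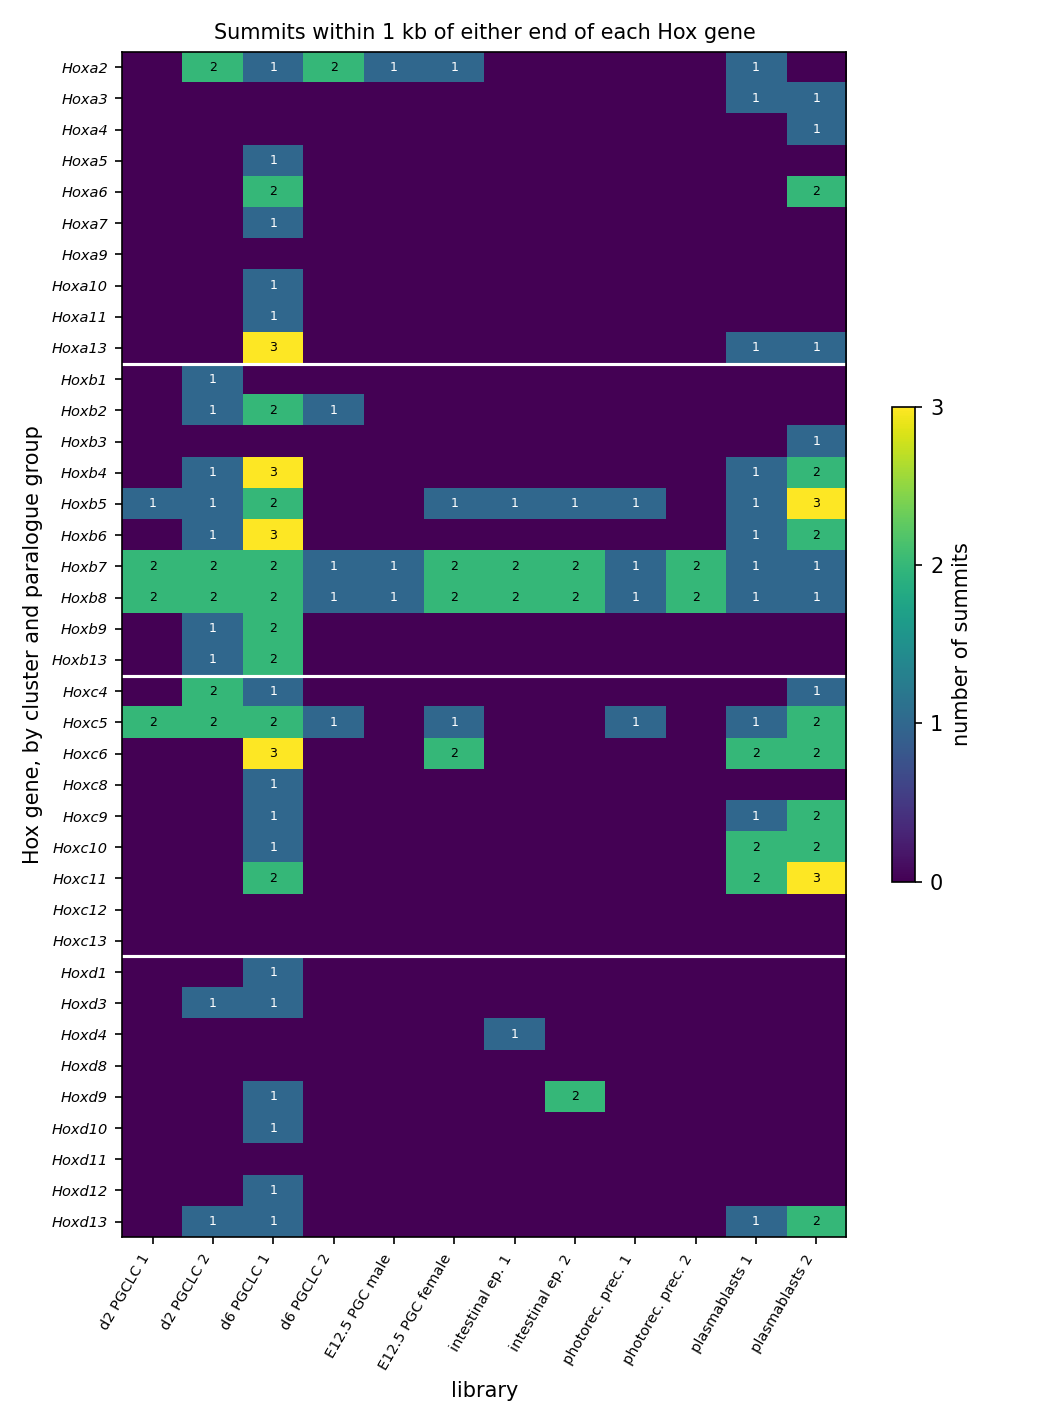
Summits counted within 1 kb of either end for 38 of the Hox genes (rows, by cluster and paralogue number) in each library (columns, germ-lineage libraries on the left). Hoxb7 and Hoxb8 are the rows filled in 12 of 12 libraries, and the d6 PGCLC replicate 1 column has 28 of the plotted genes with a summit.

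Hoxb7 and Hoxb8, trunk genes of the HoxB cluster (chromosome 11, 96285604 to 96290163 and 96279401 to 96285325), were the genes bound in all 6 cell types. Hoxb7 had 2 and 2 summits within 1 kb in d2 PGCLC, 2 and 1 in d6 PGCLC, and 1 and 2 in male and female E12.5 PGC. It had 2 and 2 in the intestinal epithelium, 1 and 2 in the photoreceptor precursors and 1 and 1 in plasmablasts, and Hoxb8 had the same counts. The counts are not independent, because the end of one gene adjoins that of the other and most of these summits are near both. Most fell into a region within Hoxb8 (96284659 to 96284997), bound in d2 PGCLC, E12.5 PGC and plasmablasts, and a region within Hoxb7 (96285661 to 96286029), bound in d2 PGCLC, intestinal epithelium and photoreceptor precursors. Outside both regions lay a summit of intestinal epithelium replicate 1 at 96285316 and the d6 PGCLC replicate 1 summits at 96289488 and 96278514. In d6 PGCLC the libraries had their other summits in different regions, at 96285908 in replicate 1 and 96284893 in replicate 2, so neither region was bound there.

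Hoxb5, which acts in the neck and trunk, was bound in d2 PGCLC, intestinal epithelium and plasmablasts. Its summits lay just below its lower end (96303512) at 251 and 210 bp in d2 PGCLC, at 175 and 203 bp in the intestinal epithelium and at 185 and 201 bp in plasmablasts. Single libraries of the other cell types had a summit in the same stretch, at 321 bp in d6 PGCLC replicate 1, 202 bp in female E12.5 PGC and 256 bp in the photoreceptor precursors replicate 1. The gene next to it, Hoxb6, was bound in plasmablasts alone, at 93 and 34 bp inside its lower end.

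Hoxc5, a neighbour of Hoxc4 and Hoxc6, was bound in d2 PGCLC, d6 PGCLC and plasmablasts. In d2 PGCLC the libraries marked opposite ends, with summits 321 bp inside the lower end in replicate 1 and 7 bp outside the upper end in replicate 2. Summits of d6 PGCLC lay at 633 bp outside the lower end in replicate 1 and 209 bp inside it in replicate 2, and those of plasmablasts at 20 bp outside and 246 bp inside it. No region near an end of Hoxc5 was thus shared by both libraries, and the region shared by 10 libraries is the one in its interior, described above.

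Hoxa2 was bound in d6 PGCLC and E12.5 PGC. Within 1 kb of its ends it had 0 and 2 summits in d2 PGCLC, 1 and 2 in d6 PGCLC, 1 and 1 in male and female E12.5 PGC, 0 and 0 in the intestinal epithelium and in the photoreceptor precursors, and 1 and 0 in plasmablasts. The d2 PGCLC summits of the region inside the gene lay at 1084 and 1042 bp from the lower end, just beyond the 1 kb limit, and those of d6 PGCLC at 995 and 856 bp, just within it. The difference between d2 and d6 PGCLC in this call is thus one of distance to the limit.

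Hoxb2, which patterns the hindbrain, was bound in d6 PGCLC alone, at 680 bp (replicate 1) and 940 bp (replicate 2) outside its upper end, and d2 PGCLC replicate 2 had a summit at 938 bp. No bound region lay within 5 kb of Hoxb2, since the d6 PGCLC libraries marked different regions.

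A set of 9 genes was bound in plasmablasts and in no other cell type: Hoxa3, Hoxa13, Hoxb4, Hoxb6, Hoxc6, Hoxc9, Hoxc10, Hoxc11 and Hoxd13. The share of all protein-coding genes bound in plasmablasts only was not counted. By regions, 69.2% of those bound in plasmablasts in the Hox clusters were bound only there, against 74.7% over the genome. Hoxa3, a gene of pharyngeal development, had summits at 187 and 165 bp inside its start and none within 1 kb in any of the other 10 libraries. Hoxb4, a gene of the hindbrain that also acts in blood-forming cells, had its nearest plasmablast summits at 585 and 377 bp inside its start. At Hoxa13, which patterns digits and the genital tract, the plasmablast summits lay at 458 bp outside and 989 bp inside the start, in different regions. These distances place binding near the starts whose sequences are printed above, without a summit of both libraries inside the windows.

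In HoxC, Hoxc11 was marked by plasmablast summits at 145 and 142 bp inside its upper end, 3 bp apart in the lists. Hoxc10, which acts in the lumbar region, had them at 945 and 965 bp inside its upper end, and Hoxc9 at 366 and 539 bp inside its lower end. Hoxc6 had them outside both ends, at 607 and 714 bp below and 229 and 296 bp above. Hoxc6 was also the gene with the most bound regions within 5 kb, 7 in all. The 5 HoxC genes bound in plasmablasts stood beside 1 HoxD gene.

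That gene was Hoxd13, which patterns digits and the genital tubercle (chromosome 2, 74668225 to 74671603). Plasmablast summits lay at 422 and 453 bp outside its upper end, in the one bound region of HoxD (74671988 to 74672093). A summit in the same region was also listed by d2 PGCLC replicate 2 (490 bp) and d6 PGCLC replicate 1 (385 bp). The start of Hoxd13 is at the other end of the gene, so the AGNGAAAG match printed above does not lie in this region.

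Of the other 24 genes, 19 had a summit within 1 kb in some library without being bound, and for 8 of these (Hoxa5, Hoxa7, Hoxa10, Hoxa11, Hoxc8, Hoxd1, Hoxd10 and Hoxd12) the library was d6 PGCLC replicate 1 alone. Hoxa9, Hoxc12, Hoxc13, Hoxd8 and Hoxd11 had none. Hoxc13, a gene of hair and nail, and its neighbour Hoxc12 had none within 5 kb either, in any of the 12 libraries. The shares of all protein-coding genes in these classes were not counted. The list of d6 PGCLC replicate 1 was the longest, with 76185 summits. Hoxa4, Hoxa6, Hoxb1, Hoxb3, Hoxb9, Hoxb13, Hoxc4, Hoxd3, Hoxd4 and Hoxd9 had summits in 1 to 3 libraries that did not make a bound gene. At Hoxb9 both d6 PGCLC libraries had a summit in the same region. That of replicate 2, at 1007 bp, fell just beyond the limit.

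Hoxb1, a gene of the hindbrain that is commonly used as a marker of the somatic programme in PGC studies, was bound in no cell type within 1 kb. It had 1 summit in d2 PGCLC replicate 2, at 633 bp outside its upper end, and none in the other 11 libraries. Within 5 kb, Hoxb1 was bound in d2 PGCLC.

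By paralogue group, genes of the middle of the clusters held most of the binding within 1 kb. Of the 12 anterior genes (groups 1 to 4), none was bound at the d2 stage, 2 in d6 PGCLC, 1 in PGC at E12.5, 0 in the intestinal epithelium, 0 in the photoreceptor precursors and 2 in plasmablasts. Of the 16 posterior genes (groups 9 to 13), 0 were bound in each cell type except plasmablasts, with 5. The d6 PGCLC zero was a near miss at Hoxb9, which holds a region bound in these cells. Its summits lay 991 bp (replicate 1) and 1007 bp (replicate 2) from the lower end of the gene. Of the 11 central genes (groups 5 to 8), 4, 3, 2, 3, 2 and 6 were bound in the same order of cell types, and Hoxb7 and Hoxb8, which share summits, account for 2 of each. By this rule anterior and posterior genes did not differ beyond the spread over cell types. The mean share bound was 6.94% in anterior and 5.21% in posterior genes (difference 1.74 percentage points, SD 10.4, n = 6 cell types; exact sign-flip permutation test, two-sided, p = 0.75), higher in anterior genes in 2 cell types, in posterior genes in 1 and equal in 3.

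**Figure D5:**
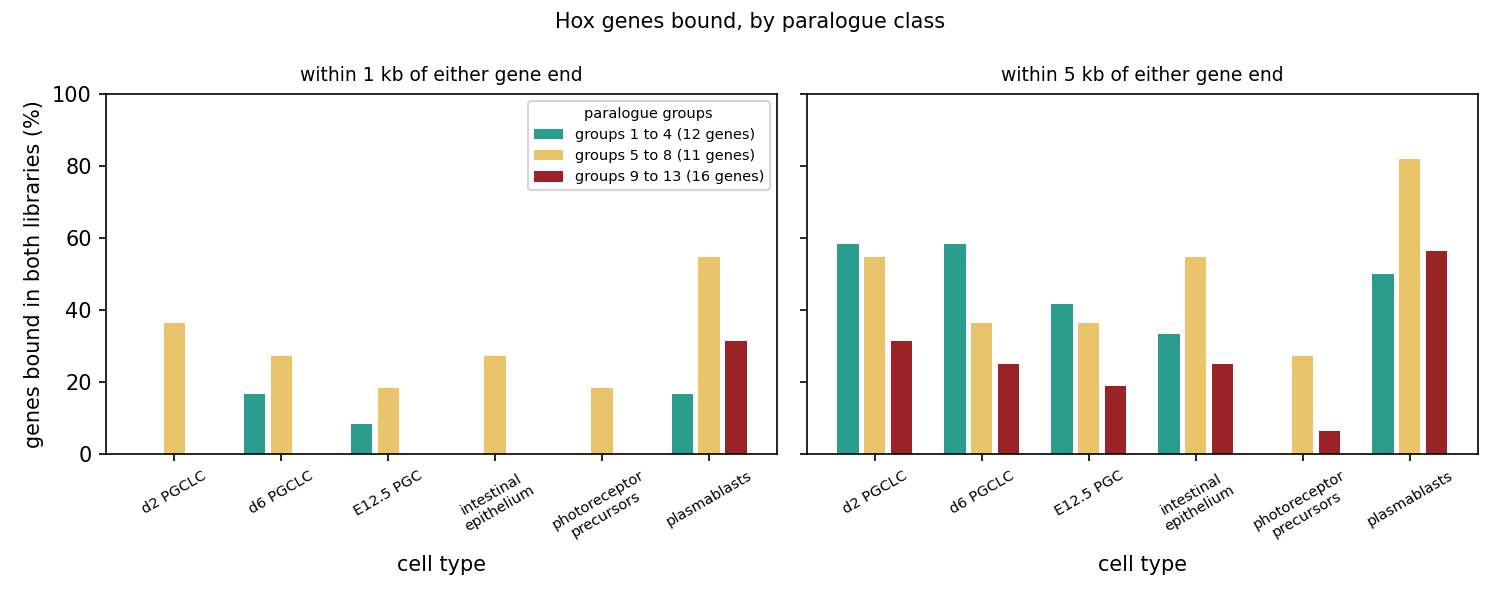
Share of Hox genes bound in both libraries of a cell type (y axis, percent), by paralogue class and cell type (x axis), within 1 kb (left) and 5 kb (right) of either gene end. At 1 kb the bars of groups 9 to 13 are at 0 outside plasmablasts, in d6 PGCLC with Hoxb9 a near miss. At 5 kb every class has bars in every cell type except groups 1 to 4 in the photoreceptor precursors.

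The outcome of this comparison depended on the classes and on 1 library. With groups 1 to 8 set against groups 9 to 13, the difference was 12.9 percentage points (exact sign-flip permutation test, two-sided, p = 0.031), most of it from the central genes. Hoxb7 and Hoxb8, which share summits, counted as 2 bound genes in each of the 6 cell types. In the photoreceptor precursors no other Hox gene was bound. The p-value thus rests in part on a shared locus, and counting that locus once was not tested. With d6 PGCLC replicate 2 left out, the anterior minus posterior difference turned to -3.82 (p = 0.50, exact permutation test). Within 5 kb, 7, 7, 5, 4, 0 and 6 anterior genes were bound in d2 PGCLC, d6 PGCLC, E12.5 PGC, intestinal epithelium, photoreceptor precursors and plasmablasts, against 5, 4, 3, 4, 1 and 9 posterior genes. That difference was 13.2 points (exact permutation p = 0.156), with the posterior share higher in the photoreceptor precursors and plasmablasts. Counting summits anywhere in the gene or within 1 kb of it, a rule added after seeing the data, gave 21.9 points (exact permutation p = 0.0625).

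Of 27 long non-coding RNA genes lying wholly within the clusters and flanks, 12 had BLIMP1 bound within 1 kb of either end in some cell type (44.4%, against 20.1% of all 12727 such genes of the annotation). By cluster they were 8 of 12 in HoxA, 3 of 6 in HoxB, 1 of 4 in HoxC and 0 of 5 in HoxD. The examples that follow were chosen after their values were seen. Hottip, just beyond the HoxA body and known in human cells to help keep the HOXA genes beside it active, was bound in every cell type except photoreceptor precursors, with 1 and 1 summits within 1 kb in d2 PGCLC, 1 and 3 in d6 PGCLC, 1 and 1 in male and female E12.5 PGC, 1 and 1 in the intestinal epithelium and 2 and 2 in plasmablasts. The uncharacterised 5730596B20Rik, within Hoxa3, was bound at all 3 germ-lineage stages and in the intestinal epithelium, with no summit within 1 kb in the photoreceptor precursors or plasmablasts. In E12.5 PGC the male and female libraries marked different regions. The region near its end (52177097 to 52177342) was thus bound in d2 PGCLC, d6 PGCLC and intestinal epithelium, not in E12.5 PGC. Hotairm1 and Hotairm2, further HoxA RNAs, were bound in d2 PGCLC and plasmablasts. These genes overlap at their ends and share summits, so their calls are not independent. In d2 PGCLC the libraries marked different regions there. Hotair, the HoxC RNA known in human cells for acting on HOXD, had no summit within 1 kb of its gene in any library.

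Genes that act with or on Hox genes were looked at by the same rule of 1 kb, in lists chosen with earlier results known, so their counts are descriptions. Of 9 cofactor genes (Pbx, Meis and Pknox), whose proteins bind DNA with Hox proteins, 2, 3, 3, 0, 3 and 6 were bound in d2 PGCLC, d6 PGCLC, E12.5 PGC, intestinal epithelium, photoreceptor precursors and plasmablasts. Of all protein-coding genes 8.41%, 9.72%, 5.79%, 7.29%, 9.68% and 39.7% were bound in these cell types, and the cofactor share was lower in the intestinal epithelium alone. Meis1 was bound in all but intestinal epithelium, where neither library had a summit. It had 1 and 2 summits in d2 PGCLC, 1 and 2 in d6 PGCLC, 1 and 1 in PGC at E12.5, 3 and 3 in the photoreceptor precursors and 1 and 3 in plasmablasts. Pbx3 was bound at the 3 germ-lineage stages and in plasmablasts, Pbx2 in PGC at E12.5, photoreceptor precursors and plasmablasts, and Meis2 in d6 PGCLC and plasmablasts.

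Of 14 Polycomb and trithorax genes, 3, 4, 3, 4, 4 and 12 were bound in the same order of cell types. Kmt2a, the trithorax methyltransferase that keeps Hox genes active, and Pcgf2, a Polycomb subunit, had a summit within 1 kb in all 12 libraries. Eed, a Polycomb subunit, was bound in d6 PGCLC, E12.5 PGC, photoreceptor precursors and plasmablasts. The share of this list was above that of all protein-coding genes, given above, in each of the 6 cell types.

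Of 11 genes upstream of Hox expression (Cdx factors, retinoic acid receptors and enzymes, Gdf11 and Zbtb16), 1, 0, 0, 0, 1 and 1 were bound, and in plasmablasts the 1 of 11 stood against 39.7% of all protein-coding genes. They were Rarg, a retinoic acid receptor, in d2 PGCLC and plasmablasts, and Rara, another, in the photoreceptor precursors. Rarb had no summit within 1 kb in any library, and Cdx1 had 1 in d2 PGCLC replicate 2, d6 PGCLC replicate 2 and female E12.5 PGC each. A list of 3 ParaHox genes, sister genes of the Hox family, held those other than the Cdx genes, which are counted above. Of these, Gsx1 was bound in d2 PGCLC (2 and 2 summits) and d6 PGCLC (1 and 2), and Gsx2 and Pdx1 had summits in d6 PGCLC replicate 1 alone. Evx1 and Evx2, the homeobox genes at the ends of HoxA and HoxD, were bound in no cell type.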

How the data were processed

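BLIMP1 binding was measured by ChIP-seq in 12 libraries of 6 cell types. Per the submitters' processing notes, the authors used Trim Galore 0.3.7, cutadapt 1.7.1, Bowtie 1.1.2, MACS2 2.1 and the mouse build mm10. The deposited lists give a chromosome and a summit position per peak, called for each library separately, and no count, score or p-value. The calling threshold is not given in the sources used here. Nor is the base of the positions, 0 or 1, and they may be off by 1 bp. A longer list may reflect depth or threshold.

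Summits on chromosomes 1 to 19, X and Y were used. Those at most 200 bp apart were merged by single linkage. Genes, promoter windows and miRNAs came from RefSeq tables of GRCm38.p6. The gene table gives no strand or exons, so exon and intron positions are not given. A gene counted as bound when both libraries of a cell type had a summit within 1 kb of either end, not necessarily the same one. Density is summits per length as a multiple of the library's mean over the 2649 Mb between the outermost summits of each chromosome. Tests were exact permutation tests over cell types (20 splits of 6 cell types, or 64 sign flips), two-sided. Intervals are Clopper-Pearson 95% intervals for counting error only. The counting was tested on simulated lists with planted summits. Python 3.11.15, numpy 2.4.6 and scipy 1.17.1 were used.

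Genes given library by library were the bound ones, ranked by cell types bound and then by bound regions within 5 kb, with Hoxb1 added. Values of 1 Hox gene and of 1 gene of the Polycomb list are not reported here singly, though both are in the counts. The Hox genes, lists and tests were chosen with earlier results of these data known. Alternatives changed the window, the flanks, the merging distance, the replicate rule and the paralogue classes, and left out each library in turn. Counting summits anywhere in the gene was added after seeing the data.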

Additional observations from a re-analysis of the deposited data

How the results depend on the processing

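Of 182 alternative values, 148 kept their direction and their side of the threshold, or for counts stayed within 1.5 times. The germ-lineage minus somatic share kept its sign in all alternatives. With replicate numbers kept in a replicate block it was 0.0564 percentage points (exact permutation p = 0.12 over 100 assignments). The labels do not say that the numbers pair libraries, and deviations of same-numbered libraries over 1 Mb bins correlated between -0.272 and 0.0571 over 10 pairs of cell types. The body minus flank difference kept its exact permutation p of 0.031 in all alternatives. The anterior minus posterior share was 12.9 points with groups 1 to 8 against 9 to 13, 21.9 with summits anywhere in the gene (exact permutation p = 0.0625), and from -3.82 to 6.94 with 1 library left out. HoxB minus HoxC (-0.219) turned to 0.0483 without d2 PGCLC replicate 1 and 0.0794 without female E12.5 PGC, and ranged from -0.517 to 0.0794.

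Bound Hox genes, given as d2 PGCLC, d6 PGCLC, E12.5 PGC, intestinal epithelium, photoreceptor precursors and plasmablasts, numbered 18, 15, 12, 14, 4 and 24 within 5 kb. Within 1 kb of the gene start they numbered 0, 0, 0, 0, 0 and 3 of 22 genes (all genes 8.11%, 9.38%, 5.84%, 7.53%, 10.4% and 41.9%), and with a summit of either library 15, 29, 6, 5, 4 and 18 (all genes 18.3%, 36.6%, 13.4%, 19.2%, 17.1% and 48.4%). With summits anywhere in the gene or within 1 kb, an alternative added after seeing the data, they numbered 11, 10, 8, 8, 3 and 15 (all genes 23%, 23.6%, 17.5%, 15.2%, 19.2% and 50.5%). With both summits in the same region, d6 PGCLC had 2, Hoxa2 and Hoxb9, the latter not among its genes bound within 1 kb. With 1 of their own libraries left out the counts ran from 5 to 14 (d2 PGCLC, 14 without replicate 1), 5 to 29 (d6 PGCLC, 29 without replicate 2), 3 to 6 (E12.5 PGC, 6 without the male library), 4 both times (intestinal epithelium), 2 to 4 (photoreceptor precursors, 4 without replicate 2) and 14 to 17 (plasmablasts). Bound regions numbered 245 with either library and from 47 to 165 with 1 library left out, the highest without d6 PGCLC replicate 2, with 70 without d2 PGCLC replicate 1 and 74 without plasmablast replicate 1. With a library left out, the other list alone defines binding in that cell type. Without heights or depth, a missing summit was not detectable in these lists, which is not an absence of binding.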

Other observations

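The regions shared by replicates were counted in each Hox cluster. In HoxA, d2 PGCLC replicates had summits in 12 and 18 regions and 9 of these regions were bound, and in HoxB 10 and 20 with 9 bound. Photoreceptor precursor libraries had 2 and 2 regions in HoxA with 1 bound, and 4 and 4 in HoxB with 2 bound. In HoxD, intestinal libraries had 2 and 2 regions and none was bound, since each library marked other places. Evx2, beside HoxD, had 1 and 2 plasmablast summits inside the gene or within 1 kb of it, and none within 1 kb of its ends.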
